A study of Mus musculus with 2 samples.

Results

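The genes described here are 10 transcriptional targets of the tumor suppressor p53: Cdkn1a, Mdm2, Ccng1, Phlda3, Perp, Zmat3, Aen, Bax, Bbc3 and Sesn2. They were chosen by name from the 31053 genes of the count tables, and all 10 were found there. The choice was made with values of these data in view, in particular the levels in cells of the retinal pigment epithelium (RPE) and the part of the Cdkn1a transcripts held by few cells, so both are given below as a description. The data were single-cell transcriptomes of mouse eye cups at e13.5, with 1 control library (Myrf fl/fl) and 1 mutant library (Rx>cre Myrf fl/fl). Each library was made from 3 pooled samples. Both genotypes carried floxed alleles of Myrf, a transcription factor gene. The mutant also carried an Rx>cre transgene, which drives Cre recombinase in the early eye field, from which the retina and the RPE arise, and not in mesenchyme or blood. The control had no Cre, so the transgene and the loss of Myrf cannot be told apart. Lens, cornea and optic nerve had been removed at dissection, before the tissue was dissociated with papain.

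The p53 protein, encoded by Trp53, is kept low in most cells by Mdm2, a ubiquitin ligase that is itself a p53 target, so that the pathway limits its own activity. When p53 is stabilized, for example by DNA damage or nucleolar stress, it binds paired sites near its target genes and raises their transcription. The targets act at different levels: some halt the cell cycle, some feed back on p53 or growth signaling, and others promote mitochondrial apoptosis.

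After filtering, 5451 control and 6309 mutant cells were kept, at a median of 11331 and 11160 UMIs (unique molecular identifiers, each standing for 1 captured transcript). Cells of both libraries were clustered together without the 10 genes, and clusters were named X-like from marker genes. This gave 14 named classes, 10 of them with at least 50 cells in each library, while 5 clusters with 1203 control and 1147 mutant cells stayed unnamed. The RPE-like class was 1 cluster with 257 control and 154 mutant cells, at lower medians of 3371 and 3738 UMIs. The sum over the 10 RPE markers was 14263 CPM (UMIs scaled to a class total of 1000000) in the control and 10243 CPM in the mutant. Myrf, the deleted gene, had 155 UMIs in control and 30 in mutant RPE-like cells, or 74.5 and 20.1 CPM. A total of 72 barcodes occurred in both libraries, and without them the RPE-like values given below barely moved (8 of 10 genes at least 1.5-fold higher, median log2 ratio 1.08). Since each genotype is a single library, replicate error is unknown and no test was made. The 95% intervals (exact Poisson for UMI sums, Clopper-Pearson for shares) reflect counting error and leave out differences between embryos or preparations. For UMI sums and their ratios they also treat each UMI as independent and leave out the spread between cells. They are therefore too narrow where few cells hold most UMIs of a gene.

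Cdkn1a encodes p21, the inhibitor of cyclin-dependent kinases through which p53 halts the cell cycle. It lies on chromosome 17 from 29090976 to 29100727 of GRCm38, on the plus strand. RefSeq promoter sequences of GRCm38.p6, from 250 bases before to 50 bases after each annotated gene start, were matched for 8 of the 10 genes. Those of Perp and Zmat3 were not matched. In these windows the p53 consensus, a pair of adjacent decamers that each keep their 4 core bases, was searched with up to 3 mismatches on both strands. A match was found for Cdkn1a at chr17:29090928-29090947, for Bbc3 at chr7:16309486-16309505 and for Aen at chr7:78895937-78895956, all on the plus strand. The 3 matches are shown because such paired sites are what p53 is known to bind, with the core bases of each decamer in capitals.
Cdkn1a: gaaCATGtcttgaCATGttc
Bbc3: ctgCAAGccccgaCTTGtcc
Aen: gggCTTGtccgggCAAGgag
The Cdkn1a match began 51 bases before a gene start and had 1 mismatch, at its position 11, counted from 1 at the 5′ end. The Bbc3 match began 97 bases before a gene start and had 3 mismatches. Windows at other annotated starts of Cdkn1a and Bbc3 held no match. The Aen match, also with 3 mismatches, began 121 bases before 1 annotated start and 10 bases after another. Such a match was present for 0.673% of the 27025 genes with a window, and one with at most 1 mismatch for 0.0666%. A match describes the letters of the window only, and no binding was measured.

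In RPE-like cells, all 10 genes stood higher in the mutant than in the control library, where 46.2% of the 11214 genes with at least 10 UMIs over both libraries did. At least 1.5-fold higher were 8 of the 10, against 8.77% of all genes, and for these 8 the counting interval also lay above 0, as it did for 3.02% of all genes. The median log2 ratio of the 10 was 1.09 and that of all genes -0.03, with 1 UMI added to each sum. Together the 10 genes held 402 CPM in the control and 691 CPM in the mutant. Since these values were in view when the genes were chosen, they describe the 2 libraries and are no test. With a minimum of 50 UMIs, 5 of 7 genes were at least 1.5-fold higher, against 3.75% of all genes.

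Cdkn1a differed most of the 10. It had 3 UMIs in control RPE-like cells (1.44 CPM, 0.297 to 4.21) and 114 in mutant RPE-like cells (76.2 CPM, 62.9 to 91.6). The log2 ratio was 5.32 (4.14 to 8.02), which ranked 1 among all 11214 genes. The 3 control UMIs came from 3 cells and the 114 mutant UMIs from 17, so the gene was detected in 1.17% of the cells in the control and 11.0% in the mutant.

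Among the genes that act on p53 and growth signaling, Mdm2 (chromosome 10 from 117688875 to 117710758) had 59 control and 66 mutant UMIs, 28.3 and 44.1 CPM, with a log2 ratio of 0.64 (0.11 to 1.17). Ccng1, which encodes cyclin G1, a partner of a phosphatase that acts on Mdm2, had 38 and 54 UMIs, 18.3 and 36.1 CPM, at 0.97 (0.36 to 1.62). It was detected in 24 of 154 mutant cells (15.6%) and 34 of 257 control cells (13.2%). Phlda3, an inhibitor of the kinase Akt, had 45 and 75 UMIs, and its ratio was 1.20 (0.66 to 1.78). Zmat3, an RNA-binding zinc finger protein that regulates splicing, had 13 and 29 UMIs at 1.58 (0.65 to 2.70). Sesn2, or sestrin 2, an inhibitor of mTORC1 signaling, had 6 and 13 UMIs at 1.48 (0.10 to 3.27). The lower bounds for Mdm2 and Sesn2 lay close to 0.

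Among the genes of cell death, Perp stood out. It encodes a tetraspan membrane protein of desmosomes that also acts in p53-dependent apoptosis, and lies on chromosome 10 from 18845020 to 18857073. Perp had 1 control UMI and 16 mutant UMIs, 0.480 and 10.7 CPM, with a log2 ratio of 3.56 (1.79 to 9.87) that ranked 3 of 11214. Its control level was a single molecule, so the size of the ratio is loosely fixed. Aen, an exonuclease of apoptotic cells, had 55 and 76 UMIs at 0.94 (0.42 to 1.47). Bax, which permeabilizes the outer mitochondrial membrane, had 590 and 563 UMIs, 283 and 376 CPM, at 0.41 (0.24 to 0.58). Bbc3, which encodes the BH3-only protein PUMA, had 26 and 27 UMIs and an interval that spanned 0, at 0.53 (-0.30 to 1.37). Of the 10 genes, Bax and Bbc3 were below the 1.5-fold limit, and Mdm2 was just above it.

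**Figure D1:**
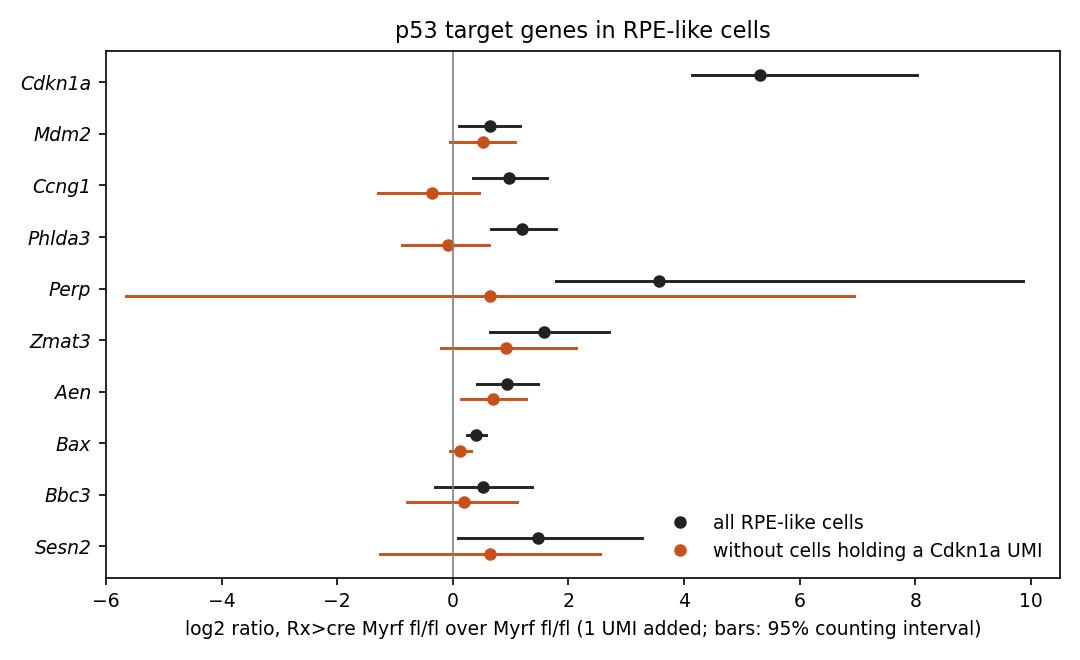
Log2 ratio of Rx>cre Myrf fl/fl over Myrf fl/fl for each of the 10 p53 target genes in RPE-like cells, with 1 UMI added and 95% counting intervals as bars, over all RPE-like cells and again without the cells that hold a Cdkn1a UMI. Over all cells the points run from 0.41 (Bax) to 5.32 (Cdkn1a), whereas without the Cdkn1a-positive cells Ccng1 and Phlda3 lie at -0.35 and -0.089.

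The mutant UMIs of several targets were concentrated in few cells. The top 5 cells held 65.8% of the 114 Cdkn1a UMIs, and the highest cell held 21 of them. They held 81.3% of the Perp UMIs, 69.2% of those of Sesn2, 48.1% of those of Ccng1, 44.8% of those of Zmat3 and 44.0% of those of Phlda3. The shares were lower for Bbc3 (33.3%), Mdm2 (24.2%), Aen (21.1%) and Bax (17.9%). A gene with few UMIs has a high share by its count alone, as for Sesn2 with 13 UMIs. When the top 5 cells of each gene were left out in each library, 6 of the 8 genes that still had 10 UMIs were at least 1.5-fold higher, against 5.56% of all genes, with a median log2 ratio of 0.85. Cdkn1a is among these 8. This step removed all 3 of its control UMIs, so its ratio there rests on mutant UMIs alone. For Cdkn1a the step therefore cannot show how far the difference depends on few cells.

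Of the 17 mutant RPE-like cells with Cdkn1a, 9 held at least 5 UMIs of it, with counts of 21, 19, 13, 13, 9, 9, 7, 6 and 6. Another 2 cells held 2 to 4 UMIs and 6 cells held 1, while the 3 control cells held 1 each. In each of the 9 cells, 4 to 9 of the other 9 target genes were also detected, with 15 to 40 UMIs between them. None of the 17 cells had a barcode that occurred in both libraries. Their median depth was 8737 UMIs against 2986 UMIs in the 137 mutant cells without Cdkn1a, and their median mitochondrial share was 5.20% against 4.80%.

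**Figure D2:**
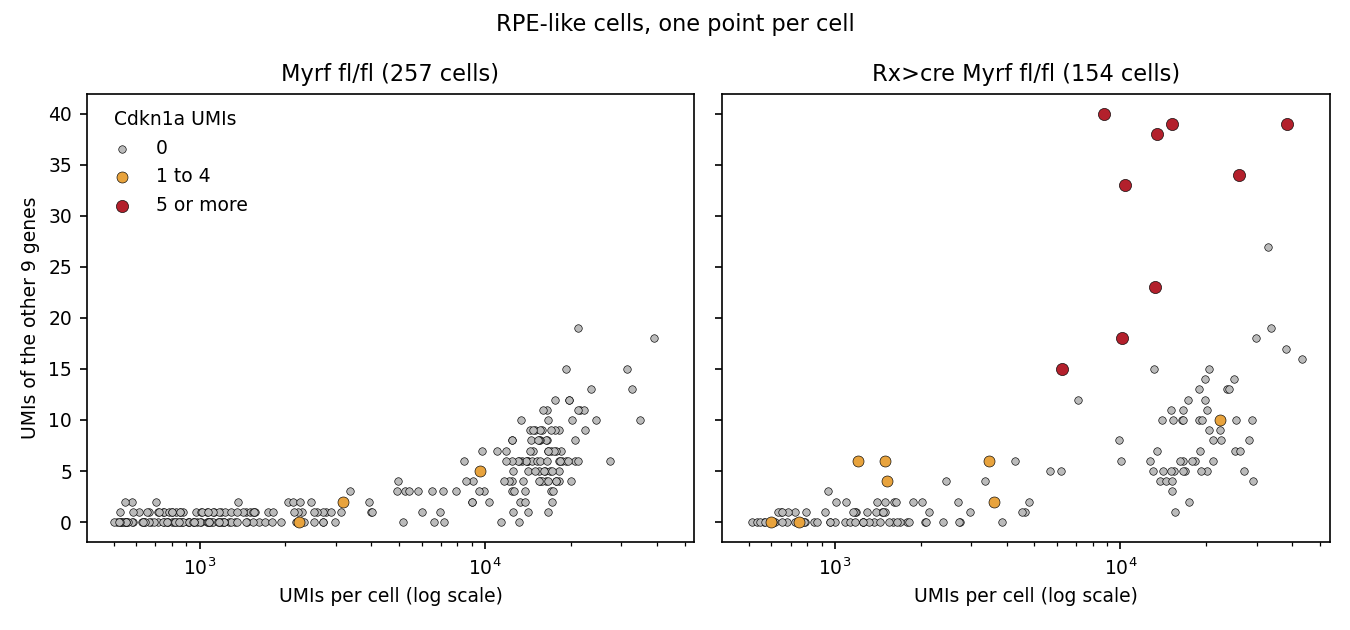
UMIs of the other 9 target genes against all UMIs of the cell (log scale), 1 point for each RPE-like cell, with 257 control cells on the left and 154 mutant cells on the right and point size and color by Cdkn1a UMIs. The 9 mutant cells with at least 5 Cdkn1a UMIs hold 15 to 40 UMIs of the other genes, and no control cell holds more than 1 Cdkn1a UMI.

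The 17 cells carried 11.8% of all UMIs of the mutant RPE-like class. They carried 93.8% of its Perp UMIs (15 of 16), 66.7% of its Ccng1 UMIs (36 of 54) and 65.3% of its Phlda3 UMIs (49 of 75). For Sesn2 the share was 53.8%, for Zmat3 44.8%, for Bbc3 33.3%, for Bax 27.2% and for Aen 25.0%. Mdm2, the feedback ligase, was nearest to the share of all UMIs, with 18.2% (12 of 66). All 9 genes thus lay above the share of total UMIs, by very different amounts.

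Summed over the other 9 genes, the 17 cells stood at 1771 CPM (1580 to 1978), the 137 mutant cells without Cdkn1a at 459 CPM (424 to 498) and the 254 control cells without Cdkn1a at 400 CPM (373 to 428). The first group lay 3.85-fold above the second. The intervals of the last 2 groups overlapped only from 424 to 428 CPM, which does not show the 2 levels to be equal. In the 3 control cells with a Cdkn1a UMI the sum was 466 CPM (187 to 961). In the other classes and libraries with at least 3 such cells, the ratio of cells with to cells without Cdkn1a ran from 0.759 in control neurogenic retinal precursor-like cells to 2.18 in mutant red blood cell-like cells. The retinal progenitor-like class had ratios of 1.13 and 1.29 in the control and mutant, periocular mesenchyme-like cells 1.25 and 1.45, and muscle-like cells 0.805 and 0.844, although their Cdkn1a level was high.

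**Figure D3:**
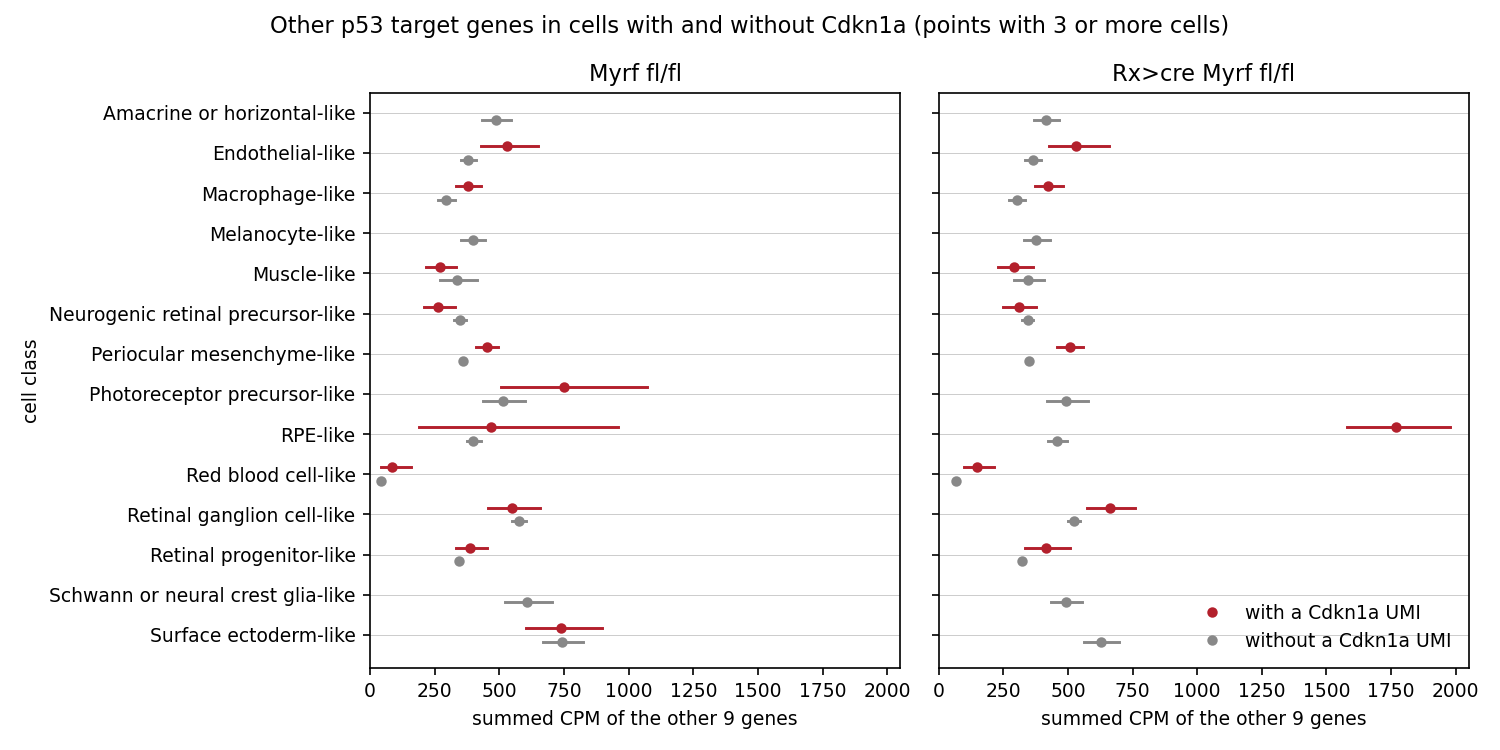
Summed CPM of the 9 target genes other than Cdkn1a in cells with and without a Cdkn1a UMI, for each class of the control (left) and mutant (right) library, with 95% Poisson intervals as bars and points where at least 3 cells were present. The mutant RPE-like cells with Cdkn1a stand at 1771 CPM, against 459 CPM in those without.

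When the Cdkn1a-positive cells of both libraries were left out, a comparison chosen after seeing the data, 3 of the 8 genes that still had 10 UMIs were at least 1.5-fold higher, against 8.82% of all genes, and the median log2 ratio was 0.36. Over all cells, 6 of these 8 genes were, with a median of 0.95. Cdkn1a itself is left out of this count by construction. Ccng1 changed sign to -0.35 (-1.29 to 0.46) and Phlda3 to -0.089 (-0.87 to 0.62), both with intervals across 0. Bax stood at 0.13 (-0.05 to 0.32). Aen kept an interval above 0, at 0.70 (0.14 to 1.26).

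Markers of other cells were measured in the same 17 cells. RPE markers summed to 12688 CPM, against 9916 CPM in the other mutant and 14294 CPM in the control cells without Cdkn1a. Markers of neurogenic retinal precursors summed to 3603 CPM, against 70.5 and 243 CPM. Their 637 UMIs lay mostly in 3 cells with 182, 421 and 27 UMIs, of which Atoh7, the proneural factor of retinal ganglion cells, made up 150, 349 and 23. Each of the other 14 cells held 0 to 2. When RPE-like cells with at least 10 UMIs of these markers were left out, also chosen after seeing the data, the ratio of Cdkn1a was 4.91 (3.71 to 7.62), that of Perp 3.39, and 8 of 10 genes were still at least 1.5-fold higher, against 8.61% of all genes, with a median of 0.91. In the 14 cells below that limit, the other 9 target genes summed to 2189.7 CPM. None of the muscle markers had a UMI in the 17 cells. The part of depth and of neurogenic markers in the target gene levels of the 17 cells was not tested further. In the whole RPE-like class, red blood cell markers summed to 738 CPM in the control and 1130 CPM in the mutant, and retinal ganglion cell markers to 171 and 33.4 CPM.

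Because the depth of a cell limits how many targets can be seen in it, each cell was thinned to 3000 UMIs, for which 126 control and 74 mutant cells of the RPE-like class were too shallow. After thinning, Cdkn1a was seen in 1 of 131 control cells (0.763%, 0.0193 to 4.18) and 11 of 80 mutant cells (13.8%, 7.07 to 23.3). At least 3 of the 10 genes were seen in 4 of 131 control cells, 3.05% (0.838 to 7.63), and in 16 of 80 mutant cells, 20.0% (11.9 to 30.4). Without thinning, the shares were 19.8% and 35.1%. The most genes seen in a thinned cell were 3 in the control and 7 in the mutant. Since Bax was detected in 59.5% of control and 64.3% of mutant cells before thinning, the count was repeated over the other genes. It was then 0 of 131 control cells, which allows a share of up to 2.29% at a floor of 3 counts and 2.78% by the Clopper-Pearson bound, and 10 of 80 mutant cells, 12.5% (6.16 to 21.8). In red blood cell-like cells, at median depths of 22426.5 and 22657 UMIs before thinning, the share with at least 3 genes was 0 of 178 in the control and 0.242% in the mutant. In surface ectoderm-like cells it was 21.6% of 37 control and 35.7% of 28 mutant cells, or 8.11% and 10.7% without Bax. It was 4.35% and 16.7% in muscle-like cells, and 12.0% and 7.07% in retinal ganglion cell-like cells. Shares of this size were thus not particular to mutant RPE-like cells. Thinned to 5000 UMIs instead, the RPE-like shares were 8.94% of 123 control and 20.8% of 72 mutant cells. With cells of at most 5% mitochondrial UMIs, however, the shares were 9.09% in the control (33 RPE-like cells) and 11.1% in the mutant (36 cells), so most of the difference was not seen in that smaller set.

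The split of RPE-like cells by sex of the embryo, told from Xist and Y-linked transcripts and chosen after seeing the data, was uneven. In the mutant, 15 female cells held 63 Cdkn1a UMIs in 7 cells (248 CPM), 45 male cells held 28 UMIs in 3 cells (34.4 CPM), and 94 cells without a call held 23 UMIs in 7 cells (53.8 CPM). In the control, 0, 1 and 2 UMIs were found. Among cells of female embryos 8 of 8 genes compared were at least 1.5-fold higher, against 18.2% of all genes, with a median log2 ratio of 1.52. Among cells of male embryos 3 of the same 8 were, against 10.3% of all genes, with a median of 0.42. The difference between the sexes was not tested, and sex cannot be told apart from single embryos of the pool.

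Other genes of the pathway were taken from lists. Trp53 itself (chromosome 11 from 69580359 to 69591873) had 100 control and 80 mutant UMIs in RPE-like cells, at 0.16 (-0.29 to 0.59) on the log2 scale, and stood at 50.9 CPM in the 17 Cdkn1a-positive cells and 53.8 CPM in the other mutant cells. Of the p53 regulators, 2 of 7 with enough UMIs were higher in the mutant (46.2% of all genes were), and their median was -0.081. Mdm4, which restrains p53 together with Mdm2, stood at -0.67 (-1.48 to 0.03) and the DNA damage kinase gene Atm at -0.13. Trp63, a p53 relative of epithelia, had 1 and 0 UMIs. None of the compared regulators had an interval that left 0.

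Among 22 further p53 targets, 18 could be compared and 12 were higher (46.2% of all genes were), with a median of 0.29. Btg2, an antiproliferative gene, had 20 and 34 UMIs at 1.21 (0.40 to 2.12), and Rps27l, a ribosomal protein paralog that shares sequence with Rps27, had 1008 and 998 UMIs at 0.46 (0.33 to 0.59). Gadd45a, a growth arrest gene, stood at 0.50 (-0.08 to 1.09). In the 17 Cdkn1a-positive cells, Rps27l had 1544 CPM, against 550 CPM in the other mutant cells, Btg2 153 against 5.31 CPM, and Gadd45a 215 against 10.6 CPM. However, all 38 Gadd45a UMIs and 22 of the 27 Btg2 UMIs lay in the 3 cells with neurogenic markers, and Gadd45a was itself among the leading genes of the neurogenic retinal precursor-like cluster. In the remaining 14 cells Gadd45a had no UMI, Btg2 46.0 CPM and Rps27l 1638 CPM.

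Genes of other programs were also measured in RPE-like cells, where 46.2% of all genes were higher in the mutant and 8.77% at least 1.5-fold higher. Of the 15 genes of mitochondrial apoptosis, 8 were higher, with a median of 0.06, and 1 had an interval above 0 and none below it. Bmf (-0.55) and Bak1 (-0.43) were lower, both with intervals across 0. The 12 cell cycle genes, which p21 lowers through the DREAM repressor complex, were all higher in the mutant, 9 of them at least 1.5-fold, with a median of 0.85. Cdk1, the mitotic kinase, stood at 1.30 (0.95 to 1.66), Top2a at 1.22 and Aurkb at 1.21. Their sum was 967 CPM in the Cdkn1a-positive cells, 831 CPM in the other mutant cells and 468 CPM in control cells without Cdkn1a. The part of cells with neurogenic markers in the first sum was not tested. Of the other CDK inhibitors, Cdkn1b stood at -0.30, Cdkn1c at -0.02 and Cdkn2d at -0.07, and 1 of 4 compared was higher. Of genes induced by dissociation, 4 of 7 compared were higher, 3 of them at least 1.5-fold, with a median of 0.22. Jun stood at 0.65 (0.17 to 1.15), Ier2 at 0.22 and Hsph1 at -0.52, while the low counts of Fos (3 and 10 UMIs, 1.94, 0.26 to 4.71) and Egr1 (3 and 8 UMIs, 1.65, -0.17 to 4.44) were looked at after their values were seen. Their sum was lower in the Cdkn1a-positive cells (124 CPM) than in the other mutant cells (166 CPM).

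Levels also differed between classes outside the RPE, although the class with the highest level was the same in both libraries for 4 of the 10 genes (Cdkn1a, Phlda3, Perp and Bbc3). Of the 15749 genes compared, a gene was said to mark a class when it stood at least 2-fold above all other kept cells in both libraries. Cdkn1a marked the small muscle-like class (2.44% of all genes did), at 466 CPM in 25 control and 219 CPM in 29 mutant cells, and both Cdkn1a and Ccng1 marked macrophage-like cells (9.98%). Perp and Phlda3 marked surface ectoderm-like cells (4.41%). Phlda3 also marked periocular mesenchyme-like (11.4%) and Schwann or neural crest glia-like cells (4.64%), Bbc3 marked retinal ganglion cell-like cells (10.1%), and Sesn2 marked melanocyte-like cells (3.95%). Mdm2, Zmat3, Aen and Bax marked no class by this rule, and no target marked the RPE-like class (8.63%). With 1 of the 10 genes each, the periocular mesenchyme-like and retinal ganglion cell-like classes were near the share of all genes.

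Perp was nearly confined to surface ectoderm-like cells in the control library. It had 161 UMIs in 36 of 64 control and 132 in 35 of 69 mutant surface ectoderm-like cells, 253 and 225 CPM. The next class in the control, macrophage-like cells, had 0.557 CPM, and 7 of the 14 classes had no Perp UMI there. Phlda3 was highest in Schwann or neural crest glia-like cells, at 248 and 134 CPM, then in surface ectoderm-like cells at 154 and 88.6 CPM and in periocular mesenchyme-like cells at 69.1 and 65.2 CPM. The intervals of the first 3 classes were separate in the control and overlapped from 1 class to the next in the mutant. Bbc3 stood at 81.5 and 68.8 CPM in retinal ganglion cell-like cells, separate from the next class, and at 28.2 and 24.1 CPM in the dividing retinal progenitor-like cells.

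Against this order of classes, the RPE-like cells moved up between the libraries. For Cdkn1a they ranked 12 of 14 in the control and 2 in the mutant, between muscle-like cells and macrophage-like cells (44.4 CPM), and the intervals of the first 3 classes were separate. For Zmat3 the rank was 11 in the control and 1 in the mutant, for Aen 13 and 3, for Sesn2 7 and 1, for Mdm2 6 and 2, for Bax 4 and 1, and for Ccng1 2 and 1. Phlda3 went from 6 to 5 and Bbc3 from 8 to 6, and Perp was at 3 in both. Most neighbors in these orders overlapped, among them the mutant RPE-like cells and the class next to them for Zmat3 (19.4 CPM), Ccng1, Bax, Mdm2 and Sesn2. The order of these classes for such genes is therefore not fixed by the counts.

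**Figure D4:**
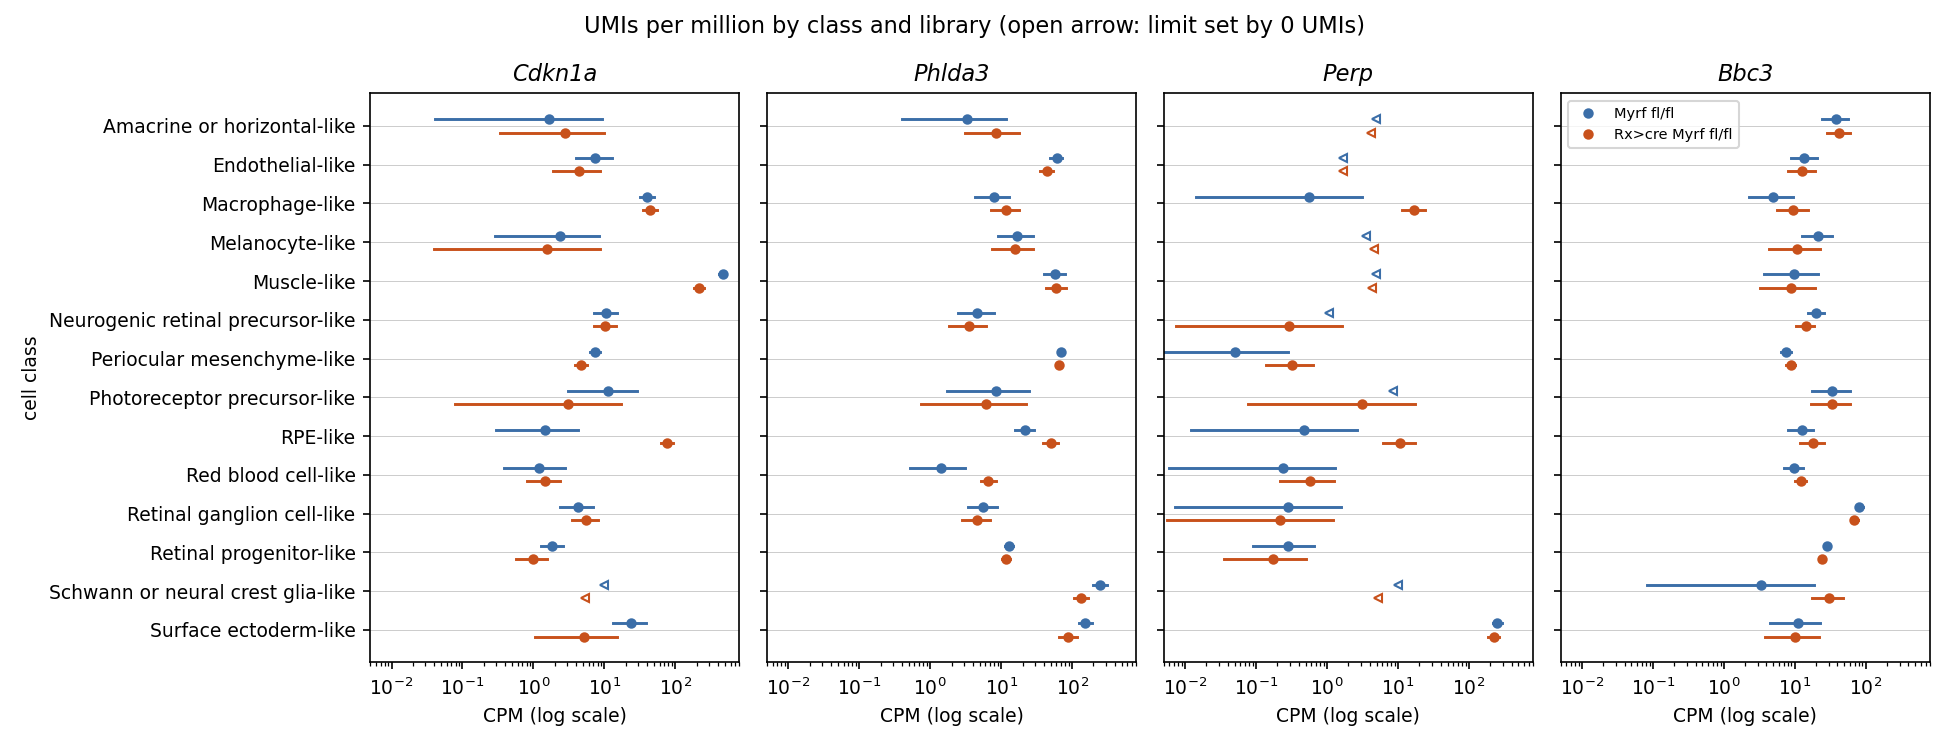
CPM (log scale) of Cdkn1a, Phlda3, Perp and Bbc3 in each named class of the control (Myrf fl/fl) and mutant (Rx>cre Myrf fl/fl) library, with 95% Poisson intervals as bars and open arrows at the limit that 0 UMIs allow. Cdkn1a in RPE-like cells lies at 1.44 CPM in the control and 76.2 CPM in the mutant, while muscle-like cells hold the highest Cdkn1a level in both.

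In the other classes of the retina, which come from the same Cre-expressing eye field, the 10 genes were nearer to equal between the libraries. Of the 9 compared in retinal progenitor-like cells (1266 and 1326 cells), none was at least 1.5-fold higher (3.28% of all genes were) and 1 was higher at all (45.3% were), with a median log2 ratio of -0.13. Their Cdkn1a had 33 and 17 UMIs at -0.88 (-1.85 to -0.03), and Bbc3 had 504 and 419 UMIs at -0.23 (-0.42 to -0.04). Bax stood at -0.11 (-0.17 to -0.04), and Mdm2 at 0.22 (0.02 to 0.42). None was at least 1.5-fold higher of 9 in retinal ganglion cell-like cells (4.99% of all genes), of 8 in neurogenic retinal precursor-like cells (5.3%) or of 5 in amacrine or horizontal-like cells (10.7%), where the medians were -0.11, -0.14 and 0.13. Intervals lay below 0 for Bbc3 in retinal ganglion cell-like cells, at -0.25 (-0.48 to -0.01), and for Bax in amacrine or horizontal-like cells, at -0.34 (-0.63 to -0.06). With 1 library per genotype the absence of a larger difference holds for these libraries and this counting error alone.

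Among classes outside the eye field lineage, periocular mesenchyme-like cells had 147 and 116 Cdkn1a UMIs at -0.66 (-1.02 to -0.30), and none of 9 genes was at least 1.5-fold higher (3.35%). In endothelial-like cells none of 8 was (5.24%). Surface ectoderm-like cells had 15 and 3 Cdkn1a UMIs at -1.88 (-4.64 to -0.38) and 98 and 52 Phlda3 UMIs at -0.78 (-1.31 to -0.30), with a median of -0.12 over 8 genes (11.7% of all genes were at least 1.5-fold higher). In the muscle-like cells, too few for the comparison of classes, Cdkn1a had 282 and 150 UMIs at -1.09 (-1.39 to -0.80), with 83.3% and 91.3% of them in 5 cells. For Cdkn1a summed over a class, the mutant library was thus the lower one in several classes and the higher one in RPE-like cells. Within the periocular mesenchyme-like class, some clusters were lower in the mutant and others higher.

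The 10 genes and the 9 other classes with at least 50 cells per library gave 90 combinations, not all of them with 10 UMIs. Of these, 3 were at least 1.5-fold higher with an interval above 0. Over all genes, 2.76% of the combinations of a gene and a class with at least 10 UMIs were. The 90 also include combinations under that minimum, so the share among those compared is higher than 3 of 90. With only 3 such combinations, no difference from the share over all genes is claimed. Perp in macrophage-like cells had 1 and 30 UMIs at 3.97 (2.33 to 10.27), of which 1 cell held 53.3% and 5 cells 96.7%. Of the 9 genes compared in that class 3 were at least 1.5-fold higher, against 9.8% of all genes. The others were Mdm2 at 1.07 (0.11 to 2.51) and Phlda3 at 2.02 (1.03 to 3.72) in red blood cell-like cells. There, all 7 genes compared were higher, but so were 72.1% of all genes, with a median of 0.35 over all genes, and 34.5% of all genes were at least 1.5-fold higher, against 3 of the 7.

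**Figure D5:**
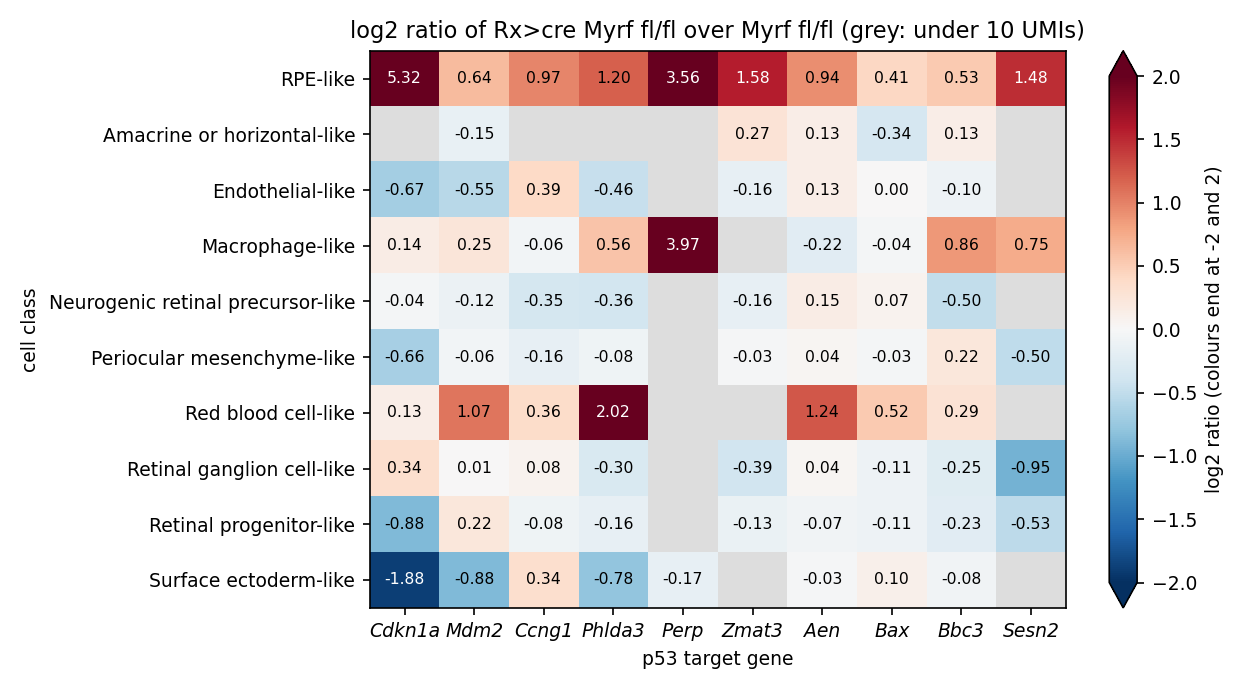
Log2 ratio of Rx>cre Myrf fl/fl over Myrf fl/fl for the 10 target genes (columns) in the classes with at least 50 cells in each library (rows), with colors that end at -2 and 2 and grey for genes under 10 UMIs. The RPE-like row is above 0 for all 10 genes, and among the other rows the red blood cell-like one, where 72.1% of all genes are higher, is above 0 for all 7 genes compared.

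The genes whose levels followed those of 3 targets most closely were taken from 10532 genes with at least 500 UMIs, by Pearson's r of log2(CPM + 1) over the 28 combinations of 14 classes and 2 libraries. These points share the libraries and differ in depth, so r is a description. For Cdkn1a they were Nrk (0.770), Acta2 (0.728), Myog, Myod1 and Msc, which include the myogenic factors of muscle. For Perp they were Krt15 (0.902), Sfn, Wnt6, Krt5 and Wnt2, which include keratins of stratified epithelium. For Ccng1 they were Fkbp1b (0.847), Rmdn1, Nudt18, Endog and Atox1. None of the 10 target genes described here was among these 15.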

How the data were processed

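The authors sequenced 1 library per genotype with a 10x 3′ kit and, per the labels, made the deposited UMI counts per gene and barcode with Cell Ranger 7.1.0 on mm10 (GRCm38). The counts carry no normalization. The submitters' processing notes also name Seurat 4.1.1. The tables held 6039 control and 6754 mutant barcodes with 63483835 and 75228861 UMIs. Barcodes needed at least 200 genes and at most 15% mitochondrial UMIs, and Scrublet in scanpy 1.11.5 marked 68 (1.23%) and 65 (1.02%) doublets. Cells were integrated and clustered in Seurat 5.3.0 under R 4.3.3, with 1968 of 2000 variable features (the targets and listed genes were left out), 30 dimensions and resolution 0.8, into 29 clusters. A cluster was named when at least 3 markers were at least 2-fold higher in it and in at least 10% of its cells, limits set after the clusters were seen. The mean log2 fold of its markers also had to be at least 0.5. Shallow clusters without a marker of their list among their leading genes stayed unnamed. So did clusters with more markers of another list there. UMIs were summed per class and library (Python 3.11.15, scipy 1.17.1). Ratios used class totals, 1 added UMI and an exact conditional binomial interval. Genes needed 10 UMIs over both libraries. The scripts were tested on simulated data that held counting error alone. The members and lists were chosen with earlier results of these data known. Named were all 10 targets, Trp53, Mdm4, Trp63 and Myrf, up to 3 genes per list with the largest ratio at 50 UMIs or more in RPE-like cells, and the 5 most alike genes for 3 targets. One gene that this rule names is not reported here. Btg2, Gadd45a and Rps27l in the Cdkn1a-positive cells, and Atoh7, Fos and Egr1, were looked at after their values were seen. The e15.5 and P0 samples were not analysed here. Whether intronic reads were counted is not given in the sources used here. Alternatives covered limits on UMIs and mitochondrial share, doublets, clustering, thinning and cell subsets.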

Additional observations from a re-analysis of the deposited data

Results flagged for a closer look

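A closer look is merited where a target gene stood beyond counting error on one side of 0 in RPE-like cells and on the other side in another class with at least 50 cells per library. These differences between classes were not tested, since each class has 1 library per genotype, and the intervals leave out the spread between cells. Cdkn1a, at 5.32 in RPE-like cells, had log2 ratios of -0.66 in periocular mesenchyme-like, -0.88 in retinal progenitor-like and -1.88 in surface ectoderm-like cells. The clusters within the mesenchyme-like class went both ways. Control and mutant CPM were 28.5 and 15.6, 15.3 and 2.46, and 1.55 and 0.35 in some. In the rest they were 4.65 and 5.99, 1.76 and 3.00, and 0.66 and 1.14. By cluster, retinal progenitor-like cells had 12 and 1, 10 and 10, 6 and 4, and 5 and 2 UMIs. Phlda3, at 1.20 in RPE-like cells, stood at -0.46 in endothelial-like and -0.78 in surface ectoderm-like cells. Bax, at 0.41 in RPE-like cells, stood at -0.34 in amacrine or horizontal-like and -0.11 in retinal progenitor-like cells. The intervals for Cdkn1a in retinal progenitor-like and for Phlda3 in endothelial-like cells both ended at -0.03. The surface ectoderm-like value of Cdkn1a rests on 3 mutant UMIs. Among the smaller classes, the same held for Cdkn1a in muscle-like cells (-1.09), and for Phlda3 (-0.88) and Aen (-1.18, against 0.94 in RPE-like cells) in Schwann or neural crest glia-like cells.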

How the results depend on the processing

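No paired analysis was possible because each genotype has 1 library, and for the same reason no replicate could be left out. Of 169 ratios of single target genes in RPE-like cells over 17 other settings, 162 were above 0, and 143 moved by less than their counting interval. Cdkn1a stayed between 3.40 and 6.94, Perp between 0.65 and 4.96, and Aen, Bax, Sesn2 and Zmat3 were above 0 throughout. Signs changed for Mdm2, to -0.41 with at most 2000 UMIs per cell and to -0.15 as a mean of CPM per cell, and, without cells that hold a Cdkn1a UMI, for Ccng1 (-0.35) and Phlda3 (-0.089), and Bbc3 reached -1.41. With at most 2000 UMIs per cell, the limit in the study's methods, which left 107 control and 64 mutant RPE-like cells, 1 of 3 genes passed 1.5-fold, the median was 0.35, and 0 combinations of a gene and another class were higher. With at most 20000 UMIs there was 1 such combination, and as a mean of CPM per cell, which has no interval, 11. A mitochondrial limit of 5% left 5 of 9 genes past 1.5-fold and shares of cells with at least 3 genes of 9.09% and 11.1%. A minimum of 50 UMIs left 5 of 7 genes, cells of male embryos 3, and cells without Cdkn1a 3, with a median of 0.36. The shares were 0% of 150 control cells and 10.0% of 90 mutant cells when thinned to 2000 UMIs, 8.94% (control) and 20.8% (mutant) when thinned to 5000, and 19.8% and 35.1% without thinning. RPE-like cells taken by a rule per cell (302 and 174) gave 7 genes, a median of 1.07, and shares of 4.30% and 12.0%. The cause of these changes was not tested. For the UMI limits, the mitochondrial limit and the rule per cell, the share of all genes was not computed, so those counts have no background. The values come from 1 pooled library per genotype, so embryo, preparation and genotype cannot be told apart, and the control lacks Cre. Many RPE-like cells are shallow, and 126 control and 74 mutant cells fell below the thinned depth. At clustering resolution 1.6, 138 control and 80 mutant RPE-like cells formed 1 cluster with a median of 1117 UMIs. Another cluster, of 119 and 75 cells, had a median of 15880.5 UMIs. Shares of cells without thinning therefore join cells of very different depth. Genes with under 20 UMIs, such as Perp and Sesn2, have intervals of several log2 units. Classes with few cells allow large differences to go undetected.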
